A study of Homo sapiens with 9 samples.

Results

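The 10 genes described here encode cohesin and the proteins that load it onto DNA and release it. They are the ring subunits SMC1A, SMC3 and RAD21, the STAG1 and STAG2 subunits that bind the ring, the loader subunits NIPBL and MAU2, and the release factors WAPL, PDS5A and PDS5B. The rule that picks them uses gene names and no measured values, in a table of 62666 genes. All 10 were among the 17910 genes that passed the filter on low counts, with at least 867 counts per library. RNA was read in 3 libraries from each of 3 cell lines of the MCF10A series, or 9 libraries.

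The parental line, MCF10A, comes from human breast epithelium, became immortal in culture and forms no tumours. Its derivative MCF10AT1 carries activated HRAS and stands for a premalignant state. MCF10Ca1a, from the same lineage, forms carcinomas in mice. The study set them side by side as steps of breast cancer development. Each stage is represented by a single line. MCF10A and MCF10Ca1a were kept in medium with 5% horse serum and MCF10AT1 in medium with 2.5%, so serum and line cannot be told apart in comparisons that include MCF10AT1. The medium of all lines was DMEM/F12 with 10 µg/mL insulin, 20 ng/mL epidermal growth factor, 500 ng/mL hydrocortisone, 100 ng/mL cholera toxin, 2 mM glutamine and 14 mM bicarbonate.

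Cohesin is a ring that holds DNA. SMC1A and SMC3 are long coiled-coil ATPases that meet at a hinge, and RAD21 closes the ring as its kleisin subunit. The ring holds sister chromatids together from their replication until division, and throughout interphase it extrudes chromatin loops that are commonly anchored at sites bound by CTCF. NIPBL with its partner MAU2 loads cohesin and stimulates its ATPase, whereas WAPL with PDS5A or PDS5B opens the ring and frees it from DNA. STAG1 and STAG2 are alternative subunits, and a given complex holds one or the other. STAG2 is among the cohesin genes most often mutated in tumours.

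Library depth ran from 32.9 to 69.5 M counts, and MCF10Ca1a was read least deeply, with a mean of 34.5 ± 1.32 M counts (SD, n = 3) against 65.99 ± 3.05 M for MCF10A and 66.3 ± 2.92 M for MCF10AT1. No 2 libraries were identical, and each of the 9 pairs within a line stood apart beyond sampling noise in its counts (chi-square over its degrees of freedom 2.42 to 68.3). The 2 highest values, 29.5 and 68.3, both involved MCF10A replicate 1. HRAS, the gene introduced to make MCF10AT1, had a mean of 41.0 CPM in MCF10A, 97.6 CPM in MCF10AT1 and 145 CPM in MCF10Ca1a. Of the 9 epithelial markers, 7 rose in MCF10Ca1a against MCF10A, among them EPCAM (30.3 to 267 CPM), CDH1 (145 to 749 CPM) and KRT19 (0.0556 to 7.28 CPM), and the basal keratins KRT5 (2548 to 686 CPM) and KRT14 (316 to 6.26 CPM) fell, beside 39% of all tested genes called higher and 41.9% lower. The summed level of the list ran from 4702 to 5978 CPM in MCF10A, from 6719 to 7229 CPM in MCF10AT1 and from 7621 to 8125 CPM in MCF10Ca1a. CD3E, a T cell marker, was at 0 in all libraries, and VWF and CDH5 of the 3 endothelial and COL1A2 and COL3A1 of the 5 fibroblast markers were at 0 or under 0.06 CPM. COL1A1, also on the fibroblast list, had means of 9.16, 3.31 and 5.11 CPM in MCF10A, MCF10AT1 and MCF10Ca1a, and the summed level of that list ran from 3.51 to 10.3 CPM over all libraries. PECAM1, an endothelial marker, had a mean of 45.4 CPM in MCF10Ca1a against 3.11 CPM in MCF10A, and CD14, a monocyte marker, had 0.208 CPM against 9.16 CPM.

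MCF10A replicate 1 had the highest CPM of its line in 9 of the 10 cohesin genes and the lowest in RAD21. Values below are given per library, and the counts of genes called are also given without that library. Levels of a gene across libraries are CPM, counts relative to the library's total after scaling by TMM. Levels of different genes are compared only in TPM, relative transcript numbers that account for transcript length. In TPM, MCF10A replicate 1 was the highest of its line in RAD21 too (261 TPM, against 253 and 248 TPM). Nothing in the labels says that libraries of a line came from separate cultures, so p-values measure the spread between these libraries, which may be technical.

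MCF10AT1 held less mRNA than MCF10A for nearly the whole cohesin machinery. In edgeR's quasi-likelihood test, at a Benjamini-Hochberg adjusted p under 0.05 over all genes tested, 9 of the 10 genes fell and none rose, beside 61.6% of all tested genes called in this comparison, 31.8% lower and 29.8% higher. WAPL did not pass the threshold. The median log2 fold change of the 10 genes was -0.37 against -0.00 for all tested genes. Their median absolute change was 0.37, and that of all tested genes was 0.38. The libraries of the lines did not overlap in any of the 10 genes, beside 65.4% of all tested genes.

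In MCF10Ca1a the machinery split. Against MCF10A, 8 genes fell, NIPBL rose and WAPL did not pass, beside 80.9% of all tested genes called, 41.9% lower and 39% higher. Against MCF10AT1, 5 genes fell (SMC1A, RAD21, STAG1, PDS5A and PDS5B), NIPBL and MAU2 rose, and SMC3, STAG2 and WAPL did not pass, beside 78.4% of all tested genes called, 40.3% lower and 38% higher. The share of cohesin genes called was therefore near the background in both comparisons. Their median log2 fold changes were -0.54 and -0.18, against -0.05 and -0.04 for all tested genes, and their median absolute changes were 0.74 and 0.42, against 0.84 and 0.76. The libraries did not overlap in 9 genes against MCF10A and in 8 against MCF10AT1, beside 81.5% and 81.9% of all tested genes. The 3 comparisons share libraries.

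A test of any difference among the 3 lines called 9 genes, all but WAPL (edgeR adjusted p 0.0839), beside 89.4% of all tested genes. Without MCF10A replicate 1 the counts called were 9 in MCF10AT1 against MCF10A, 9 in MCF10Ca1a against MCF10A and 8 in MCF10Ca1a against MCF10AT1, and all 10 genes were called among the 3 lines. Summed over the 10 genes, the share of a library's counts was 0.160% to 0.177% in MCF10A, 0.118% to 0.122% in MCF10AT1 and 0.0939% to 0.0954% in MCF10Ca1a.

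**Figure D1:**
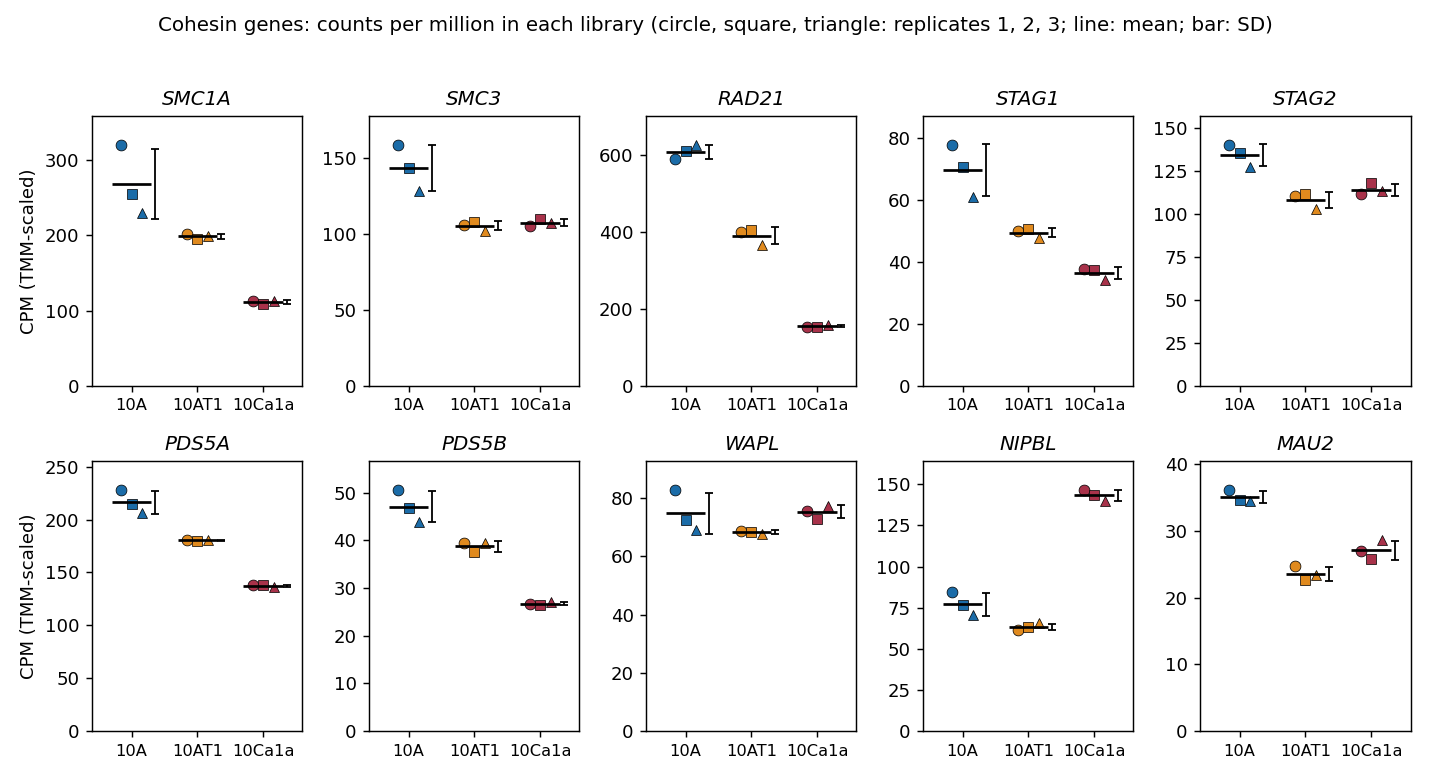
Level of each cohesin gene in each library, in CPM on linear axes that start at 0. Symbols mark replicates 1 to 3, horizontal lines the mean and bars the SD of the 3 libraries of a line. RAD21 steps down from 609 to 391 to 155 CPM, NIPBL stands alone in rising to 143 CPM in MCF10Ca1a, and MCF10A replicate 1 (circle) is the highest of its line in 9 panels.

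**Figure D2:**
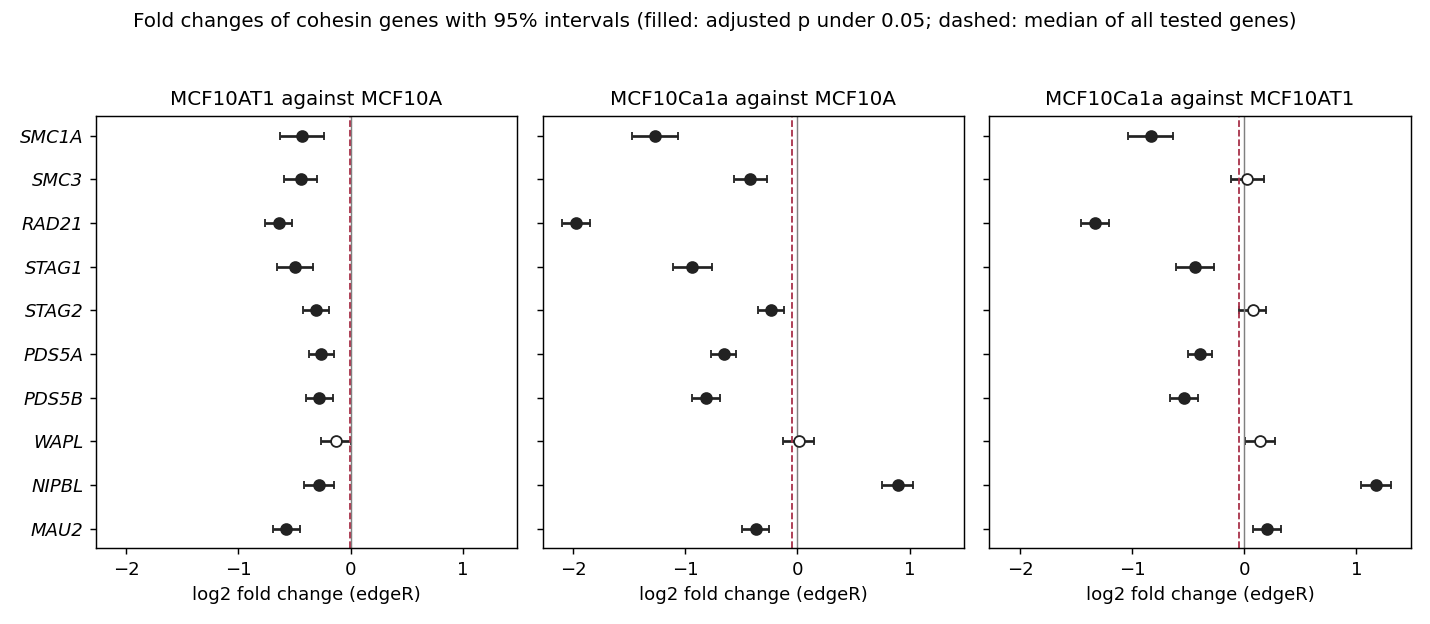
Log2 fold change of each gene from edgeR in the 3 comparisons, with 95% intervals. Filled points have an adjusted p under 0.05, and the dashed line is the median of all tested genes. In MCF10AT1 against MCF10A the points lie between -0.64 and -0.13, and in MCF10Ca1a against MCF10A they spread from -1.97 to 0.89.

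RAD21 changed most among the ring subunits. It lies at chr8:116845935-116874866 on the minus strand (GRCh38). Its level was 590.2, 610.2 and 626 CPM in the MCF10A libraries, 400.5, 406 and 365 CPM in those of MCF10AT1, and 153, 153 and 158 CPM in those of MCF10Ca1a. Every MCF10AT1 library was below every MCF10A library, and every MCF10Ca1a library was below both. RAD21 fell 1.56-fold in MCF10AT1 against MCF10A (log2 fold change -0.64, SE 0.0564, edgeR adjusted p 3.3e-07). Against MCF10A it fell 3.93-fold in MCF10Ca1a (log2 fold change -1.97, SE 0.0587, edgeR adjusted p 1.2e-12), the largest change among the 10 genes. Between MCF10AT1 and MCF10Ca1a it fell 2.52-fold (log2 fold change -1.33, SE 0.0577, edgeR adjusted p 7.28e-11). In MCF10Ca1a against MCF10A, 10.6% of all tested genes had a lower log2 fold change than RAD21.

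SMC1A, the ring ATPase encoded on the X chromosome (chrX:53374149-53422728, minus strand), also stepped down from line to line. Its level was 320.3, 256 and 229 CPM in MCF10A, 201, 196 and 199 CPM in MCF10AT1, and 113, 108 and 113 CPM in MCF10Ca1a. The lines did not overlap, but the MCF10A libraries spread far more (SD 17.4% of the mean) than those of MCF10AT1 (1.45%) and MCF10Ca1a (2.53%). SMC1A fell 1.35-fold in MCF10AT1 against MCF10A (log2 fold change -0.43, SE 0.092, edgeR adjusted p 0.00103), and, without MCF10A replicate 1, it fell by 0.29 on the log2 scale (adjusted p 1.18e-04). In MCF10Ca1a it fell 2.41-fold against MCF10A (log2 fold change -1.27, SE 0.0943, edgeR adjusted p 1.8e-08) and 1.78-fold against MCF10AT1 (-0.83, SE 0.0937, adjusted p 1.69e-06). The last difference was -0.41 on the log2(TPM + 1) scale, where it was called with the filter on low values and not without it (adjusted p 0.0796).

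SMC3, the other ring ATPase (chr10:110567691-110604636, plus strand), did not follow its partner into MCF10Ca1a. Its level was 159, 144 and 128 CPM in MCF10A, 106, 108 and 102 CPM in MCF10AT1, and 105, 109.8 and 107 CPM in MCF10Ca1a. MCF10A stood above the other lines, whose libraries overlapped. SMC3 fell 1.36-fold in MCF10AT1 (log2 fold change -0.45, SE 0.0673, edgeR adjusted p 6e-05) and 1.34-fold in MCF10Ca1a (-0.42, SE 0.0679, adjusted p 5.96e-05) against MCF10A. Between MCF10Ca1a and MCF10AT1 its log2 difference was 0.03 (95% interval -0.12 to 0.17, adjusted p 0.724).

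The 2 STAG genes differed in the same way. STAG1 (chr3:136336233-136752403, minus strand) had 77.8, 70.7 and 60.9 CPM in MCF10A, 49.9, 50.7 and 47.8 CPM in MCF10AT1, and 37.8, 37.5 and 34.1 CPM in MCF10Ca1a, with no overlap between lines. It fell 1.41-fold in MCF10AT1 (log2 fold change -0.50, SE 0.0761, edgeR adjusted p 6.96e-05) and 1.91-fold in MCF10Ca1a (-0.94, SE 0.0791, adjusted p 7.21e-08) against MCF10A. Between MCF10Ca1a and MCF10AT1 it fell by 0.44 on the log2 scale (SE 0.0793, adjusted p 1.65e-04), a call that was lost on each of the 3 log2(TPM) scales tried. STAG2 (chrX:123960212-124422664, plus strand) had 140.0, 136 and 127 CPM in MCF10A, 110.4, 112 and 103 CPM in MCF10AT1, and 111, 118 and 113 CPM in MCF10Ca1a. MCF10A was again above both other lines, which overlapped. STAG2 fell 1.24-fold in MCF10AT1 (log2 fold change -0.31, SE 0.0545, edgeR adjusted p 2.31e-04) and 1.18-fold in MCF10Ca1a (-0.23, SE 0.055, adjusted p 0.00135) against MCF10A. Its log2 difference between MCF10Ca1a and MCF10AT1 was 0.07 (95% interval -0.04 to 0.19, adjusted p 0.228).

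NIPBL was the only cohesin gene that rose in MCF10Ca1a against MCF10A. NIPBL (chr5:36876759-37066413, plus strand) is the large subunit of the loader. Its level was 84.5, 76.4 and 70.5 CPM in MCF10A, 61.7, 63.2 and 65.4 CPM in MCF10AT1, and 146, 144 and 139.7 CPM in MCF10Ca1a. The lowest MCF10Ca1a library lay above the highest of the other lines, and MCF10AT1 lay below MCF10A without overlap. NIPBL fell 1.22-fold in MCF10AT1 against MCF10A (log2 fold change -0.28, SE 0.0627, edgeR adjusted p 0.00149). In MCF10Ca1a it rose 1.86-fold against MCF10A (log2 fold change 0.89, SE 0.0628, edgeR adjusted p 9.63e-09) and 2.26-fold against MCF10AT1 (1.18, SE 0.0633, adjusted p 7.03e-10). A smaller log2 fold change than that of NIPBL was found in 76.4% and 84.2% of all tested genes, respectively.

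MAU2, the smaller loader subunit (chr19:19320681-19358755, plus strand), fell in both later lines against MCF10A. Its level was 36.1, 34.6 and 34.5 CPM in MCF10A, 24.7, 22.7 and 23.4 CPM in MCF10AT1, and 27.0, 25.8 and 28.6 CPM in MCF10Ca1a. MCF10A was highest and MCF10AT1 lowest, with no overlap between lines. MAU2 fell 1.49-fold in MCF10AT1 (log2 fold change -0.57, SE 0.0542, edgeR adjusted p 6.85e-07) and 1.29-fold in MCF10Ca1a (-0.37, SE 0.0556, adjusted p 2.9e-05) against MCF10A. It rose slightly in MCF10Ca1a against MCF10AT1 (log2 fold change 0.20, SE 0.0564, adjusted p 0.00485). That rise did not pass without the filter on low counts (adjusted p 0.163) or with the authors' length-scaled (0.0955) or scaled counts (0.0859).

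WAPL, which removes cohesin from chromatin (chr10:86435256-86521815, minus strand), did not pass in any comparison. Its level was 82.8, 72.4 and 69.2 CPM in MCF10A, 68.8, 68.4 and 67.6 CPM in MCF10AT1, and 75.6, 73.0 and 77.4 CPM in MCF10Ca1a. The MCF10A and MCF10Ca1a libraries overlapped, and MCF10AT1 lay just below both. The log2 difference was -0.13 in MCF10AT1 against MCF10A (95% interval -0.26 to 0.00, edgeR adjusted p 0.0836), 0.01 in MCF10Ca1a against MCF10A (-0.13 to 0.15, adjusted p 0.885) and 0.14 in MCF10Ca1a against MCF10AT1 (0.01 to 0.28, adjusted p 0.0544). The last difference was called in 9 of the 20 alternatives, with log2 values from 0.05 to 0.38 over all of them. The first moved with single MCF10A libraries: it was -0.05 without replicate 1 (adjusted p 0.31) and was called without replicate 3 (-0.19, adjusted p 0.0138). The second, near 0, ran from -0.06 to 0.12 and was never called.

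PDS5A and PDS5B, the 2 partners of WAPL, fell at both steps. PDS5A (chr4:39822863-39977956, minus strand) ran from 206 to 228 CPM in MCF10A, from 180.0 to 181 CPM in MCF10AT1 and from 136 to 138 CPM in MCF10Ca1a. It fell by 0.26 (SE 0.0504, edgeR adjusted p 4.94e-04) in MCF10AT1 and by 0.66 (SE 0.0511, adjusted p 2.93e-08) in MCF10Ca1a on the log2 scale against MCF10A. Between MCF10Ca1a and MCF10AT1 it fell by 0.40 (SE 0.051, adjusted p 6.94e-06), which was also lost on the 3 log2(TPM) scales. PDS5B (chr13:32586427-32778019, plus strand) ran from 43.9 to 50.6 CPM, from 37.5 to 39.5 CPM and from 26.5 to 27.0 CPM in the same order of lines. It fell by 0.28 (SE 0.0551, adjusted p 5.84e-04) and 0.82 (SE 0.058, adjusted p 1.08e-08) against MCF10A, and by 0.54 (SE 0.0582, adjusted p 1.16e-06) in MCF10Ca1a against MCF10AT1. Neither gene overlapped between lines.

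The TPM scale shifted the comparison of MCF10Ca1a with MCF10AT1. The median of all tested genes was 0.13 on the log2(TPM + 1) scale there, against -0.04 in edgeR. With log2(TPM + 0.1) that median was 0.21, and it was -0.11 in MCF10AT1 and 0.10 in MCF10Ca1a against MCF10A. On the log2(TPM + 1) scale SMC3, STAG2, NIPBL, MAU2 and WAPL were called higher and SMC1A, RAD21 and PDS5B lower. The median of the 10 genes was 0.04, which is below the median of all tested genes as it was in edgeR. The TPM scale also changed called values by over 1.5 times in PDS5B (-0.29) and MAU2 (0.36) in that comparison, in SMC3 (-0.27, lost on 2 of the 3 scales) and MAU2 (-0.20) in MCF10Ca1a against MCF10A, and at its largest in STAG2 in MCF10AT1 against MCF10A (-0.48 with 0.1 added). STAG2 in MCF10Ca1a against MCF10A was -0.42 with the length-scaled counts.

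Levels per transcript length placed RAD21 first in every line, without overlap with PDS5A, the next gene. PDS5A had means of 58.7, 46.0 and 41.7 TPM in MCF10A, MCF10AT1 and MCF10Ca1a. RAD21 had 254 ± 6.62 TPM (SD, n = 3) in MCF10A, 148 ± 10.4 TPM in MCF10AT1 and 69.7 ± 0.891 TPM in MCF10Ca1a. In MCF10A the next 4 genes, PDS5A, SMC1A, STAG2 and SMC3, had means from 58.7 down to 42.0 TPM, and neighbours in that order overlapped. WAPL, STAG1 and PDS5B followed with means from 19.6 to 14.9 TPM, and neighbours in that order overlapped too. NIPBL (11.9 ± 1.44 TPM) and MAU2 (10.7 ± 0.627 TPM) were lowest and overlapped.

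The order of MCF10AT1 was the same as that of MCF10A, but only STAG1 and PDS5B overlapped as neighbours. In MCF10Ca1a NIPBL moved from rank 9 to rank 6, with 22.8 ± 0.856 TPM (SD, n = 3), just above WAPL at 21.2 ± 0.808 TPM and without overlap. SMC1A moved from rank 3 to rank 5, at 27.8 ± 1.33 TPM, below SMC3 at 34.4 ± 0.149 TPM. PDS5A (41.7 TPM) overlapped STAG2 (40.1 TPM), and MAU2 (9.20 TPM) overlapped PDS5B (9.13 TPM) at the bottom.

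**Figure D3:**
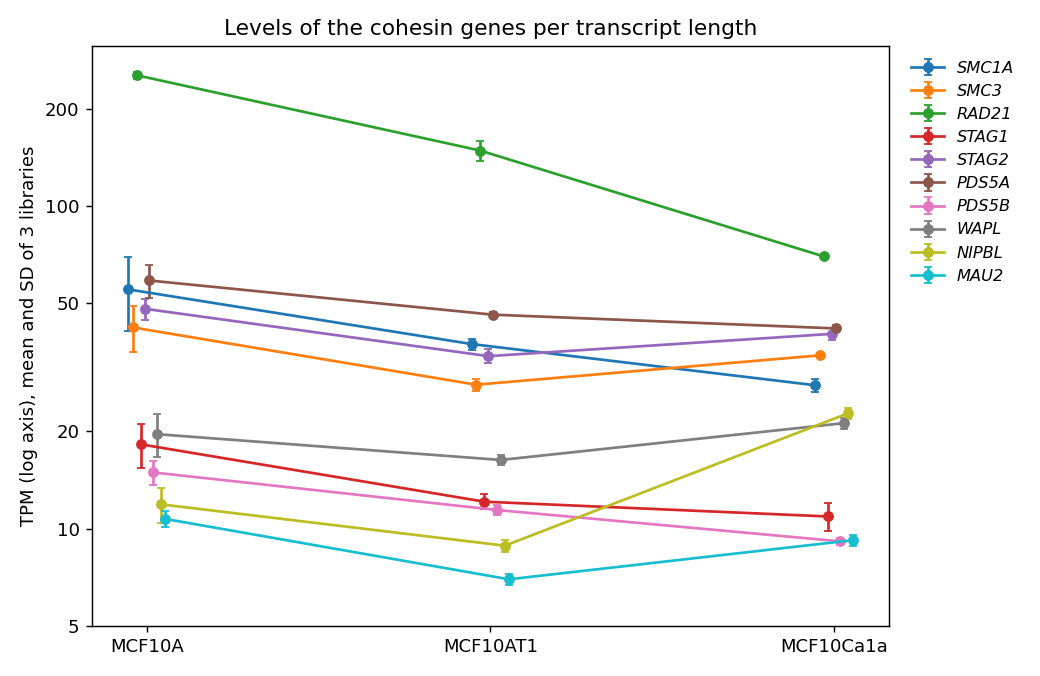
Mean TPM of each cohesin gene in the 3 lines on a logarithmic axis, with bars for the SD of 3 libraries. RAD21 leads in every line but falls from 254 to 69.7 TPM, and the NIPBL line crosses those of STAG1, PDS5B and WAPL on its way from 8.85 TPM in MCF10AT1 to 22.8 TPM in MCF10Ca1a.

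Ratios of 2 genes within a library do not depend on how libraries are scaled, so 6 ratios of TPM were compared over the 3 lines with an exact permutation test over all assignments of the 9 libraries to lines (on the sum of squares between lines, which has no direction, with Benjamini-Hochberg adjustment over the 6 ratios). All 6 differed among the lines. For a pair of lines an exact test cannot go below p = 0.1, so pairs were not tested. The ratios describe the same libraries as the tests above, which had called all of these genes but WAPL.

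NIPBL gained on its loader partner and on the release factor WAPL in MCF10Ca1a. The NIPBL to MAU2 ratio was 1.20, 1.07 and 1.05 in turn for MCF10A, 1.15, 1.31 and 1.36 for MCF10AT1, and 2.67, 2.31 and 2.46 for MCF10Ca1a (exact p 0.00714, adjusted 0.0171). MCF10A and MCF10AT1 overlapped, and MCF10Ca1a was above both. The NIPBL to WAPL ratio was 0.584, 0.628 and 0.611 for MCF10A, 0.498, 0.555 and 0.577 for MCF10AT1, and 1.10, 1.10 and 1.03 for MCF10Ca1a. Its exact p of 0.00357 was the smallest that the permutations can give (adjusted 0.0171). The 3 lines did not overlap in this ratio.

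Within the ring, RAD21 came down towards the SMC subunits. The RAD21 to SMC3 ratio was 5.30, 6.13 and 6.98 for MCF10A, 5.38, 5.40 and 5.15 for MCF10AT1, and 2.02, 1.99 and 2.06 for MCF10Ca1a (exact p 0.0107, adjusted 0.0171). MCF10Ca1a lay far below the other lines, which overlapped. The SMC1A to SMC3 ratio had geometric means of 1.29, 1.34 and 0.807 in MCF10A, MCF10AT1 and MCF10Ca1a (exact p 0.0286, adjusted 0.0286), so SMC1A exceeded SMC3 in 6 of 6 libraries of the first 2 lines and in none of MCF10Ca1a.

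The paralog ratios shifted less. The STAG1 to STAG2 ratio ran from 0.340 to 0.406 in MCF10A, from 0.342 to 0.367 in MCF10AT1 and from 0.254 to 0.285 in MCF10Ca1a (exact p 0.0143, adjusted 0.0171). The PDS5A to PDS5B ratio ran from 3.84 to 4.07, from 3.90 to 4.19 and from 4.54 to 4.62 (exact p 0.0143, adjusted 0.0171). The PDS5B level includes PDS5B-203, annotated as a target of nonsense-mediated decay. That transcript held a mean of 35.4%, 24.5% and 39.7% of the PDS5B counts in the same order of lines. In both ratios MCF10A and MCF10AT1 overlapped and MCF10Ca1a stood apart, with the more abundant paralog taking the larger part.

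**Figure D4:**
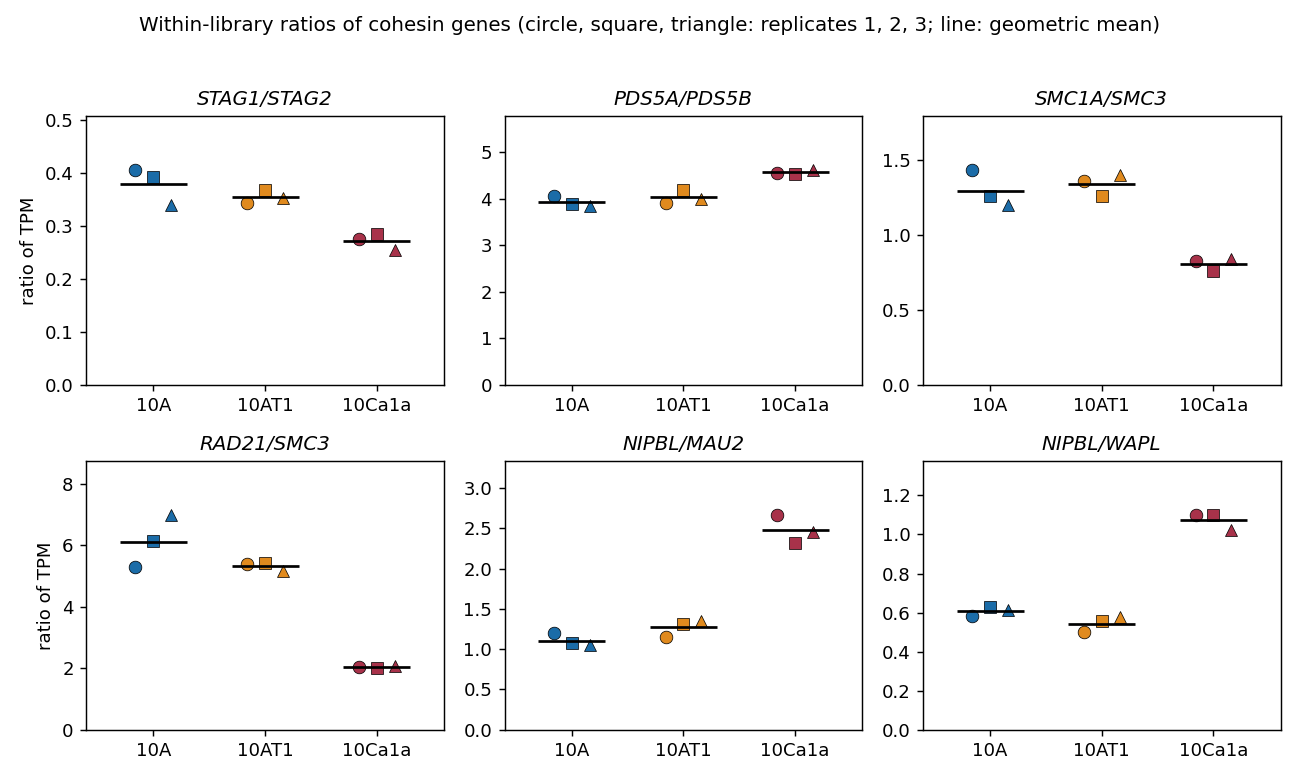
The 6 ratios of TPM in each library, on linear axes that start at 0. Symbols mark replicates 1 to 3 and lines the geometric mean of a line. MCF10Ca1a is separate from the other lines in every panel, with a NIPBL to WAPL ratio from 1.03 to 1.10 against 0.498 to 0.628 in the 6 other libraries.

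Transcripts of the genes were then compared by their share of the gene's counts. For each transcript, limma tested the log2 of its counts divided by those of all other transcripts of the gene, over 73815 transcripts, of which 71 belonged to the cohesin genes. It called 0 of these 71 in MCF10AT1 against MCF10A (10 at an unadjusted p under 0.05), 8 in MCF10Ca1a against MCF10A and 6 in MCF10Ca1a against MCF10AT1. With 1 library left out, the last 2 counts ran from 4 (without MCF10A replicate 3) to 9 and from 4 (without MCF10AT1 replicate 3) to 8. The background was 1.52%, 18.3% and 13.5% of all transcripts tested. Estimated transcript counts share reads, and the uncertainty of that assignment was not used here.

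NIPBL held 3 of the 8 calls, and its 2 long transcripts end differently. In GENCODE 29, NIPBL-201 has 47 exons and NIPBL-202 has 46, of which 44 are the same in both. NIPBL-201 splices from exon 46 (chr5:37063790-37063978) to a last exon at chr5:37064527-37066413, whereas NIPBL-202 reads on and ends within a longer exon 46 (chr5:37063790-37064190). The first exons have different start sites and the same end. The 2 transcripts encode 8412 and 8091 coding bases. The sequences below show this choice: the lower-case letters are the last 30 coding bases that both share (chr5:37063949-37063978, plus strand), and the capitals are the coding bases that follow in one transcript only.
NIPBL-201: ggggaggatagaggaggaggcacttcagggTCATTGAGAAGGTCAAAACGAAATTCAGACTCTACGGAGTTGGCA
NIPBL-202: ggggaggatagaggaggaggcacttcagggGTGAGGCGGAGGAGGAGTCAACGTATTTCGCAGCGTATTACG
NIPBL-201 has 363 coding bases of its own after this point, of which 45 are shown, and NIPBL-202 has 42, all shown. The GENCODE 29 models were matched to the deposited transcripts without their version numbers.

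NIPBL-202 took a smaller share of the NIPBL counts in MCF10Ca1a than in MCF10A, and NIPBL-201 a larger one. NIPBL-202 (ENST00000448238.2) took 51.7%, 44.4% and 53.7% of the NIPBL counts in the MCF10A libraries, 36.9%, 22.0% and 46.2% in those of MCF10AT1, and 17.6%, 23.4% and 17.8% in those of MCF10Ca1a. NIPBL-201 (ENST00000282516.13) took 43.8%, 46.2% and 39.4% for MCF10A, 49.3%, 55.1% and 41.1% for MCF10AT1, and 65.7%, 55.9% and 67.4% for MCF10Ca1a. The MCF10A and MCF10Ca1a libraries did not overlap in either transcript, while those of MCF10AT1 overlapped one or both of the other lines. Another transcript, ENST00000652901.1, is not among the GENCODE 29 models. It had a mean share of 6.22% in MCF10A, 15.3% in MCF10AT1 and 17.2% in MCF10Ca1a. Its share was not called in MCF10AT1 against MCF10A (limma adjusted p 0.166) or in MCF10Ca1a against MCF10AT1 (0.732).

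In MCF10Ca1a against MCF10A the log2 share ratio of NIPBL-202 fell by 2.05 (SE 0.419, limma adjusted p 0.0164), that of NIPBL-201 rose by 1.18 (SE 0.293, adjusted p 0.033) and that of ENST00000652901.1 rose by 1.69 (SE 0.402, adjusted p 0.0284). These calls were sensitive to single libraries. Leaving out replicate 1 or 3 of MCF10A or of MCF10Ca1a ended each of them, with adjusted p from 0.0534 to 0.111 and no change of sign. Leaving out MCF10AT1 replicate 1 ended those of NIPBL-201 (0.0646) and ENST00000652901.1 (0.0537). Without MCF10A replicate 2 the NIPBL-201 call was lost too (0.0767), and without MCF10Ca1a replicate 2 that of ENST00000652901.1 (0.0853). In TPM, NIPBL-201 went from 4.66 ± 0.910 (SD, n = 3) in MCF10A to 3.89 ± 0.536 in MCF10AT1 and 13.6 ± 1.38 in MCF10Ca1a, whereas NIPBL-202 went from 5.92 ± 1.04 to 3.11 ± 1.11 and 4.65 ± 0.776. The MCF10Ca1a libraries of NIPBL-201 lay above all others, and those of NIPBL-202 overlapped those of MCF10A.

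**Figure D5:**
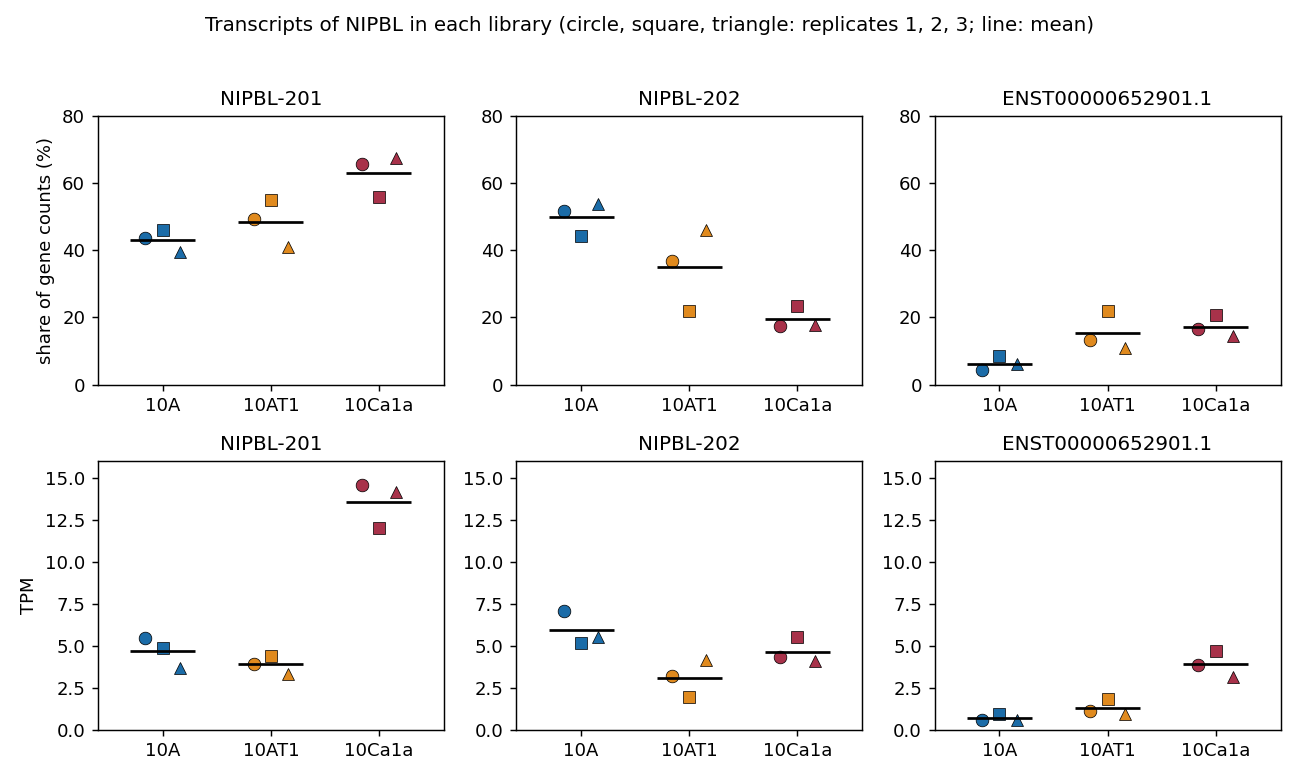
Share of NIPBL counts (top, percent) and TPM (bottom) of its 3 main transcripts in each library, on linear axes with the same scale along a row. Symbols mark replicates 1 to 3 and lines the mean. NIPBL-201 has a mean of 13.6 TPM in MCF10Ca1a, while NIPBL-202 lies between 1.94 and 7.10 TPM in all libraries.

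Several other cohesin genes were read mainly from a single transcript in every line. WAPL-202 took a mean of 99.2% to 99.7% of the WAPL counts, SMC3-201 from 94.5% to 94.96% of those of SMC3 and RAD21-201 from a mean of 91.2% in MCF10A to 95.6% in MCF10Ca1a. PDS5A-201 fell from 96.6% ± 0.430 (SD, n = 3) in MCF10A to 93.6% ± 0.290 in MCF10Ca1a (log2 share ratio -0.97, limma adjusted p 0.00958), as PDS5A-202 went from 2.72% to 5.71%. MAU2-201 rose from 76.3% ± 1.20 in MCF10AT1 to 86.0% ± 0.930 in MCF10Ca1a (0.93, adjusted p 0.0131), as MAU2-208 went from 8.43% to 3.65%. The MAU2-201 call was lost on transcript TPM (adjusted p 0.0897) and when any of the 3 MCF10AT1 libraries was left out (0.0514 to 0.0666). STAG2-204 had a mean of 63.5% in MCF10A, 65.3% in MCF10AT1 and 79.2% in MCF10Ca1a with an SD of 10.1 in the last, and was not called (adjusted p 0.0888 against MCF10A and 0.134 against MCF10AT1). Another STAG2 transcript, ENST00000686127.1, took 19.0% of the gene's counts in MCF10Ca1a replicate 1 and had 0 counts in the other two libraries of that line, against 8.30% to 18.3% in the MCF10A and MCF10AT1 libraries. Without MCF10Ca1a replicate 1, STAG2-204 was called against both lines (adjusted p 0.00998 and 0.0166). PDS5B-203, annotated as a target of nonsense-mediated decay, took a mean of 35.4%, 24.5% and 39.7% of the PDS5B counts and was not called in any comparison. Neither was PDS5B-201, the protein-coding transcript beside it (59.95%, 69.0% and 55.5%). In SMC1A, SMC1A-201 took a mean of 76.5%, 76.3% and 70.98%, and ENST00000674590.1 took 17.0%, 16.5% and 20.5%. In STAG1, STAG1-202 took 88.0%, 90.2% and 83.2%, and STAG1-203 took 6.53%, 5.50% and 12.9%. STAG2-203 had a mean of 14.5% in MCF10A and 11.2% in MCF10AT1, and took 8.39%, 0% and 9.35% in the MCF10Ca1a libraries. None of these transcripts passed in a comparison (limma adjusted p of at least 0.125).

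The remaining calls were minor transcripts, named after their values were seen. RAD21-202 and RAD21-207 had mean shares from 1.20% to 2.00% in MCF10A and MCF10AT1 and 0 counts in MCF10Ca1a, where a count of 0 allows a share of up to 0.0582% at the lowest RAD21 depth. ENST00000687902.1 of RAD21 had 1.26%, 1.60% and 0.274% in the 3 lines. NIPBL-208 went from 1.14% in MCF10AT1 to 0.0768% in MCF10Ca1a. This limit covers counting error only.

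Promoter sequences are shown for genes that went opposite ways, to set their letters side by side: SMC1A and STAG1, which fell in both later lines, and NIPBL, which rose in MCF10Ca1a. The RefSeq table on GRCh38.p14 matched 9 of the 10 genes with 12 start sites. It had no entry for RAD21, so no motif count below includes that gene. The 250 bases before a start were searched on both strands for 7 motifs. These were GGGCGG (SP), CCAAT (NFY), CCGGAAG (ETS), TTTGGCGC, TTTCCCGC or TTTCGCGC (E2F), TTTGAA (CHR), AAGATGGC (YY1) and the NRF1 consensus. Capitals mark matches, and where the E2F and SP letters overlap they form 1 run. The final 25 bases of the STAG1 window and 10 of the NIPBL window lie inside the GENCODE 29 gene.
SMC1A, chrX:53422729-53422978, minus strand: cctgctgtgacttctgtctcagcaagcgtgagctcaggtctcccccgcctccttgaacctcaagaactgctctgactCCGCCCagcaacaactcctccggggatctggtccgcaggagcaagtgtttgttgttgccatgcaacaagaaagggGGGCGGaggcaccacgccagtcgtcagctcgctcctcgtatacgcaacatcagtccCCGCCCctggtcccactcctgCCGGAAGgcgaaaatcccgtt
STAG1, chr3:136752379-136752628, minus strand: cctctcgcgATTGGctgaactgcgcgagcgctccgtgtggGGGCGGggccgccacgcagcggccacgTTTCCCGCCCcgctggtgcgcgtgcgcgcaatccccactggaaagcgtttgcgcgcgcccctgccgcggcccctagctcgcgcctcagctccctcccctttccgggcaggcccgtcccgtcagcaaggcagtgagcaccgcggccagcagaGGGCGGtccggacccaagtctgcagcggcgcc
NIPBL, chr5:36876519-36876768, plus strand: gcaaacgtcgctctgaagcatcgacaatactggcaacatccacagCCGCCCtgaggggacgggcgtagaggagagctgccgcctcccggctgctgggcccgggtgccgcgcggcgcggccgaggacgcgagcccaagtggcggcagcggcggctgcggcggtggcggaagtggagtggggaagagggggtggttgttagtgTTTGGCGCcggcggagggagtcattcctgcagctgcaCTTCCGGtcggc
The SP letters were found in all 12 windows, beside 42.6% of 35116 windows of the table. E2F letters were found in 1 window each of STAG1, NIPBL, SMC1A and STAG2, which is 4 of the 12 windows beside 2.32% of all windows. For SMC1A that window belongs to its other start site and is not the one shown. It overlaps the SMC1A window shown, so a match in the bases they share is counted in both.

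CCAAT or its reverse complement was found in 6 of the 12 windows (32.0% of all windows), the ETS letters in 3, of SMC1A and NIPBL (8.52%), the CHR letters in 1, of SMC3 (13.3%), and the NRF1 and YY1 letters in none (1.03% and 1.36%). The ETS letters of SMC1A are the same match in both of its overlapping windows. By gene, SP letters were found in 9 of 9, CCAAT in 5, E2F letters in 4 and ETS letters in 2. The windows of the cohesin genes held from 52.8% to 78% G and C, beside a median of 58% over all windows. E2F letters thus stood in windows of genes that fell in MCF10Ca1a against MCF10A (SMC1A, STAG1 and STAG2) and of NIPBL, which rose. All 250 bases of the STAG2 window with E2F letters, and 74 of the SMC1A window with them, lie inside the GENCODE 29 gene. A match describes these letters only.

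Of the partners that act on cohesin through the cell cycle, more fell than rose in each comparison. The list held 9 genes: CDCA5 (sororin), the acetyltransferases ESCO1 and ESCO2, the deacetylase HDAC8, PTTG1 (securin), ESPL1 (separase, which cuts RAD21), the protectors SGO1 and SGO2, and CTCF. In MCF10AT1 against MCF10A 6 fell, ESPL1 most (62.8 to 28.9 CPM, log2 fold change -1.12), ESCO1 (0.27) and PTTG1 (0.18) rose, and HDAC8 did not pass (-0.14). In MCF10Ca1a against MCF10A 8 fell, again with ESPL1 first (6.03 CPM, log2 fold change -3.38), and ESCO1 rose (27.5 to 53.8 CPM, 0.97). In MCF10Ca1a against MCF10AT1 7 fell, ESPL1 most (log2 fold change -2.26), ESCO1 rose (0.70), and CTCF did not pass (-0.04). ESCO1 acetylates SMC3 outside as well as within S phase, whereas ESCO2 acts on replicating DNA. The shares of all tested genes called lower were 31.8%, 41.9% and 40.3% in the 3 comparisons, in that order. The median log2 fold change of the list was -0.21, -1.74 and -1.56, against -0.00, -0.05 and -0.04 for all tested genes.

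The germline paralogs of cohesin subunits were barely read. SMC1B, RAD21L1, REC8 and STAG3, which serve in meiosis, together had from 1.13 to 2.21 CPM in any library, and RAD21L1 was at 0 in MCF10A and MCF10Ca1a. Of the 3 tested, SMC1B fell in MCF10AT1 against MCF10A (0.437 to 0.0717 CPM) and rose in MCF10Ca1a against MCF10AT1 (to 0.543 CPM). REC8 fell in MCF10Ca1a against MCF10A (1.29 to 0.764 CPM). Each comparison thus called 1 of the 3. All tested genes were called at 61.6% in MCF10AT1 and 80.9% in MCF10Ca1a against MCF10A, and at 78.4% in MCF10Ca1a against MCF10AT1.

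The SMC5/6 complex, a related ring that acts in DNA repair, had genes called in both directions. Of its 6 genes tested (EID3 was too low), 3 rose and 1 fell in MCF10AT1 against MCF10A, 2 rose and 3 fell in MCF10Ca1a against MCF10A, and 2 rose and 2 fell in MCF10Ca1a against MCF10AT1. These counts stand beside 61.6%, 80.9% and 78.4% of all tested genes called, and the shares of the complex called were near them. SMC5 rose most in MCF10Ca1a against MCF10A (84.8 to 157 CPM, log2 fold change 0.89, edgeR adjusted p 2.1e-09). NSMCE4A fell most there (32.1 to 7.73 CPM, -2.05, adjusted p 5.87e-12), although it was the member that rose most in MCF10AT1 against MCF10A (0.45).

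Among genes of cycling cells, more fell than rose in each comparison. Of 19 such genes, among them MKI67, TOP2A, CDK1 and the MCM helicase, 12 fell, 1 rose (PCNA, 0.31) and 6 did not pass in MCF10AT1 against MCF10A, beside 31.8% of all tested genes called lower. All 19 fell in MCF10Ca1a against MCF10A and against MCF10AT1, with a median log2 fold change of -1.97 in each, beside 41.9% and 40.3% of all tested genes called lower. Their summed level ran from 4752 to 4990 CPM in MCF10A, from 3721 to 3872 CPM in MCF10AT1 and from 1096 to 1128 CPM in MCF10Ca1a. The part of division in the cohesin results was not tested. In bulk RNA, fewer cells of a kind and less RNA per cell cannot be told apart.

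The genes most like 3 of the cohesin genes were sought by the root mean square difference of log2 CPM, each gene centred on its own mean over the 9 libraries, among 15541 tested genes with a symbol. For RAD21 these were NIPAL2 (0.0534), TGFB1I1 (0.0557) and C1orf112 (0.0679). SMC1A was closest to NCAPD2 (0.0397), CHAF1A (0.0406) and ZNF395 (0.0572). For NIPBL the closest were EXOC7 (0.0311), RALGAPA2 (0.0329) and DCP1A (0.0348). NCAPD2 is a subunit of condensin and CHAF1A of the chromatin assembly factor that acts at replication forks. Roles of the other genes named are not described, and a shared role was not tested.

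Genes next to the cohesin genes were read as a check on regional change, within 1 Mb of each gene's ends. The 12 tested neighbours of NIPBL had a median log2 fold change of -0.35 in MCF10Ca1a against MCF10A, opposite to the 0.89 of NIPBL. The 6 neighbours of RAD21 had a median of -0.91, beside -1.97 for RAD21. PDS5B lay close to its 7 neighbours (median -0.94 against -0.82), whereas STAG1 lay opposite to its 9 (0.81 against -0.94) and SMC1A far below its 12 (0.11 against -1.27). The medians were -0.25 for the 10 neighbours of SMC3 (-0.42 for SMC3), 0.19 for the 3 of STAG2 (-0.23), 0.27 for the 46 of MAU2 (-0.37), -0.49 for the 17 of WAPL (0.01) and -0.21 for the 22 of PDS5A (-0.66). In MCF10AT1 against MCF10A, 3 genes lay close to the median of their neighbours: STAG2 (-0.31 against -0.33), NIPBL (-0.28 against -0.21) and PDS5B (-0.28 against -0.25). SMC1A (-0.43 against -0.12), RAD21 (-0.64 against -0.26), MAU2 (-0.57 against -0.03) and PDS5A (-0.26 against -0.07) lay further below it, and for SMC3 (-0.45 against 0.22), STAG1 (-0.50 against 0.06) and WAPL (-0.13 against 0.09) the signs were opposite. In MCF10Ca1a against MCF10AT1, PDS5B (-0.54 against -0.58) and MAU2 (0.20 against 0.33) lay closest to theirs, and RAD21 (-1.33 against -0.35), PDS5A (-0.40 against -0.06) and STAG2 (0.07 against 0.53) had the same sign. The signs were opposite for NIPBL (1.18 against -0.19), SMC1A (-0.83 against 0.11), STAG1 (-0.44 against 0.51), SMC3 (0.03 against -0.54) and WAPL (0.14 against -0.14). DNA copy number of these lines was not analysed here.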

How the data were processed

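Polyadenylated RNA of 9 libraries was sequenced with a stranded kit after column extraction, per the labels' protocols. Salmon and hg38 are named in the submitters' processing notes, with no versions. The annotation and settings are not given in the sources used here. The authors deposited estimated counts per gene and per transcript, 2 rescaled gene count tables, and TPM per gene and transcript, per the file headers and values.

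Here the deposited estimated counts were rounded and tested with edgeR 4.0.16 (quasi-likelihood, TMM, filterByExpr with a minimum count of 10 and a minimum total of 15, R 4.3.3), with all 9 libraries in 1 fit, line as the only term and Benjamini-Hochberg adjustment over 17910 genes. Transcript shares were tested with limma 3.58.1 (0.5 counts added). DESeq2 1.42.0 was an alternative, as were other count tables, scalings, filters and units, the replicate number as a block, and each library left out. The gene tests and the transcript share test were checked on simulated data, and the exact test of the ratios was not. Simulated transcripts were drawn independently of each other, without the shared reads of real estimates. Depth was 32.9 to 69.5 M counts and was lowest in MCF10Ca1a. The cohesin genes spread most between the MCF10A libraries (SD 2.59% to 17.4% of the mean CPM, against 0.885% to 5.54% in MCF10Ca1a).

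The cohesin genes were set by name, and they and all gene lists, motifs and tests were chosen with earlier results of these data known. Named were all 10 genes, from each list the genes that rose and fell most, transcripts with a mean share of at least 10% in a line, and the 3 most alike genes of the 3 genes with the widest range. Markers and any further list genes or transcripts were named after their values were seen. Positions come from GENCODE 29 on GRCh38, matched by unversioned identifier (17168 of 17910 tested genes). One marker gene is not reported here.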

Additional observations from a re-analysis of the deposited data

How the results depend on the processing

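Over 20 alternatives (other scalings, tests, filters, count tables and units, thinning, the replicate block, and each of the 9 libraries left out), the log2 fold changes of the 10 genes in 3 comparisons stayed on the same side of the threshold in 572 of 600 values. No called value changed sign, 16 passed only in the alternative and 12 no longer passed. Leaving out 1 library gave 9 to 10 genes called in MCF10AT1 against MCF10A, 9 to 9 in MCF10Ca1a against MCF10A, 7 to 8 in MCF10Ca1a against MCF10AT1 and 9 to 10 among the 3 lines, and all 6 ratios passed each time. SMC3 in MCF10Ca1a against MCF10A was lost on log2(TPM + 0.1) (adjusted p 0.0524) and on log2(TPM + 1) without a filter (0.0755), where SMC1A against MCF10AT1 was lost too (0.0796). In MCF10Ca1a against MCF10AT1 the uncalled values of SMC3 ran from -0.06 to 0.30 and of STAG2 from -0.06 to 0.23, and they were called higher in 2 and 4 alternatives. Transcripts called in MCF10AT1 against MCF10A moved from 0 to 1 on transcript TPM and to 2 with 5 counts added, and ran from 0 to 1 with a library left out. The ranges were 4 to 9 in MCF10Ca1a against MCF10A and 4 to 8 in MCF10Ca1a against MCF10AT1. The causes were not tested. With the replicate block, 9, 9 and 7 genes were called as without it, and 0, 9 and 5 transcripts, with the NIPBL-201 call (adjusted p 0.085) and the MAU2-201 call (0.0576) lost. The numbers did not pair the libraries: same-numbered libraries had correlations of deviations from -0.06 to 0.03, and 0 of 9 libraries correlated best with its own number. MCF10Ca1a was read least deeply. Thinning all libraries to the smallest kept each call of the 10 genes and added WAPL in MCF10Ca1a against MCF10AT1 (edgeR adjusted p 0.0291).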
